A study of Mus musculus with 2 samples.

Results

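CD8 antibody treatment under pressure overload was examined in the CD45+ cells of mouse hearts 1 week after transverse aortic constriction (TAC), a surgical narrowing of the aorta that raises the pressure against which the left ventricle pumps. The members were the cells whose hashtag the deposited notes assign to WT mice with TAC and CD8+ T cell depletion, with at least 500 genes read and mitochondrial genes giving no more than a 0.4 share of the reads. These were 894 of the 5263 cells kept in the whole series, and they were compared with the 1615 cells of WT TAC. Monocytes and macrophages were also taken apart, as the cells with a level of at least 200 CPM (reads of a gene per 1000000 reads) of *Csf1r* and 2000 CPM of *Lyz2*, which gave 607 cells of the labelled group and 1095 of WT TAC. The levels of these 2 gate genes are therefore not results.

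All groups were male mice aged 8 weeks, for which the labels of the pool give the strain C57BL/6N, while the study's methods give a C57BL/6 background for all mice, CD3e-/- included. WT sham mice had surgery without constriction, and WT TAC mice had the constriction with no CD8 antibody named in the notes. The group labelled CD8-depleted TAC was WT mice that had the constriction and, per the study's methods, an antibody against CD8 by intraperitoneal injection, first on day 0 and then each 3 days. CD3e-/- sham and CD3e-/- TAC mice lack T cells from birth, so they differ from the antibody group in all T cells and in the length of the absence. Whether WT TAC mice received vehicle or a control antibody, and how many hearts were pooled under each hashtag, is not given for this pool in the sources used here, though the study names PBS as the vehicle of its depletion experiments. CD45+ cells were enriched by a density gradient and positive magnetic selection, tagged by group and sequenced together by TAS-Seq, a BD Rhapsody microwell method, as 1 library. Each group was therefore 1 sample, and groups were compared by their values with no test. The ranges given after a value are 95% intervals, by the exact Clopper-Pearson method for a share and the exact Poisson method for a sum of reads, and they cover counting error only, since reads are not independent molecules and no spread between mice was measured.

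CD8+ T cells recognise peptides on MHC class I and act on other cells by killing and by cytokines such as interferon-gamma. Ly6c-high monocytes leave the blood for the stressed heart, where they become CCR2+ macrophages, while resident macrophages that carry *Timd4*, *Lyve1*, *Folr2* and *Cd163* largely renew themselves in the tissue. Type I interferon acts through transcription factors that bind interferon-stimulated response elements in the promoters of antiviral genes, while metallothioneins bind zinc and copper and are induced through metal response elements.

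Sequencing depth was close between both groups. The 894 cells of the labelled group had 109031226 reads, a median of 98471 reads and 4106.5 genes per cell, and the 1615 cells of WT TAC had 208758777 reads, a median of 98869 reads and 4074 genes. The median mitochondrial share was 4.10% and 4.09%, and *Ptprc*, which encodes CD45, was read in 98.5% and 97.8% of cells. No cell barcode was shared between hashtags.

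The reads of CD8 genes did not separate the labelled group from WT TAC. After thinning each cell to 30000 reads, *Cd8a* or *Cd8b1*, the chains of the CD8 coreceptor, was read in 8 of 858 cells (0.932%, 0.403% to 1.83%) of the labelled group and in 18 of 1542 cells (1.17%, 0.693% to 1.84%) of WT TAC. Without thinning, the counts were 9 of 894 cells (1.01%) and 19 of 1615 cells (1.18%). As background, 0 of 64 and 0 of 80 thinned cells with B cell markers had such a read, with exact upper bounds of 5.60% and 4.51% (3 cells would make 4.69% and 3.75%). In all cells, *Cd8a* came to 6.55 CPM in the labelled group and 7.40 CPM in WT TAC, and *Cd8b1* to 7.74 and 10.7 CPM.

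Cells with at least 3 of 6 T cell markers at 100 CPM were 26 of 894 (2.91%, 1.91% to 4.23%) in the labelled group and 36 of 1615 (2.23%, 1.57% to 3.07%) in WT TAC. These T cells were read less deeply in the labelled group, at a median of 92579.5 against 131853.5 reads. CD8 reads were found in 6 of 26 and 9 of 36 of them without thinning, and in 5 of 25 and 9 of 36 after it. The other counts of cells in this paragraph are without thinning. Both CD3e-/- groups had 0 such T cells. In these cells *Cd8a* was at 143 CPM (131 to 156) in the labelled group and 163 CPM (153 to 173) in WT TAC, and *Cd8b1* at 231 CPM (216 to 247) and 260 CPM (247 to 273). The coreceptor gene of helper T cells, *Cd4*, was read in 15 of 26 and 21 of 36 of them, at 179 and 147 CPM. The genes *Cd3e* and *Cd3g*, for CD3 chains of the T cell receptor complex, were at 314 and 495 CPM in the labelled group against 273 and 422 CPM in WT TAC. *Ifng*, which encodes interferon-gamma, was read in 12 of 26 cells with T or NK cell markers of the labelled group and in 10 of 37 of WT TAC. Both CD8 chains were read together in 5 of 26 cells with T cell markers of the labelled group and 6 of 36 of WT TAC. A lower share of CD8 cells was thus not detectable among so few T cells, and the group is named by its label throughout.

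The makeup of the CD45+ cells was close between both groups for the largest class and differed in several small ones. Gated monocytes and macrophages were 67.9% (64.7% to 71.0%) of the labelled group and 67.8% (65.5% to 70.1%) of WT TAC. Cells with B cell markers were 8.05% (6.35% to 10.04%) against 5.70% (4.62% to 6.94%). Cells with markers of type 1 conventional dendritic cells, which present antigen to CD8+ T cells, were 16 (1.79%, 1.03% to 2.89%) against 58 (3.59%, 2.74% to 4.62%). Cells with neutrophil markers were 17 (1.90%, 1.11% to 3.03%) against 10 (0.619%, 0.297% to 1.14%). All these intervals overlapped, for neutrophils and type 1 dendritic cells only at their ends. The neutrophil markers *S100a8* and *S100a9* were at 118 and 127 CPM in all cells of the labelled group and at 47.7 and 55.9 CPM in WT TAC, with 19.2% and 19.4% of the reads of the labelled group from 1 cell, while the dendritic markers *Xcr1* and *Clec9a* were at 29.3 and 15.3 CPM against 49.1 and 27.4 CPM. In summed reads of all cells, more cells of a class and more RNA per cell cannot be told apart.

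Gene by gene, few genes differed by 2-fold or more. Differences are given as log2((CPM in the labelled group + 10)/(CPM in WT TAC + 10)), a scale that understates the difference of low genes, for genes with at least 20 CPM in either group. In all CD45+ cells 21 of 7128 genes (0.295%) were higher by 2-fold or more in the labelled group and 6 (0.0842%) were lower. In gated cells 7 of 6904 genes (0.101%) were higher and 11 (0.159%) lower. The median log2 ratio over all genes tested was close to 0, at 0.005 in all cells and 0.006 in gated cells, and 89.6% of genes in gated cells lay within 0.25 of 0. Most genes past 2-fold rested on few cells. Genes named as leading had to be read in at least 10% of the cells of the higher group, with no cell giving over 10% of their reads there, and of the genes past 2-fold only *Slfn4* (higher) and *Mt2* (lower) met this in all cells, and only *Ly6c2* and *Ly6a* (higher) and *Mt2* (lower) in gated cells.

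**Figure D1:**
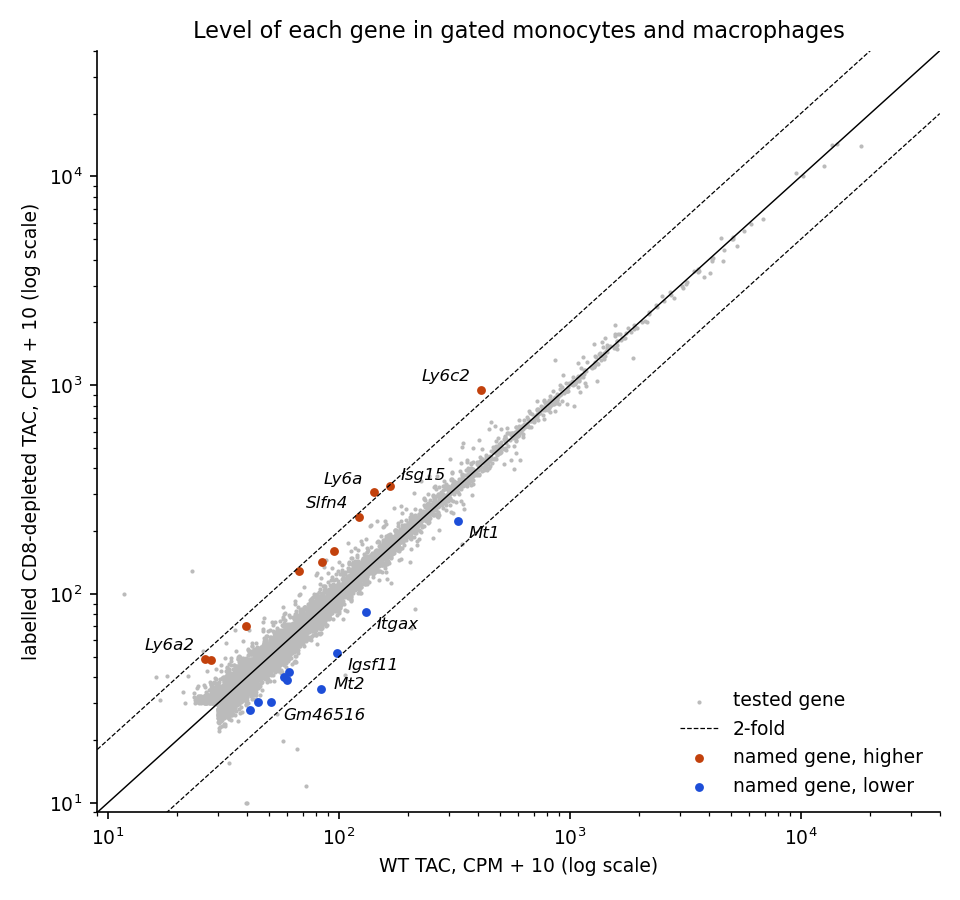
Level of each gene tested in gated monocytes and macrophages, as CPM + 10 of summed reads on log axes, in WT TAC (horizontal) and the labelled group (vertical); each point is 1 gene and dashed lines mark 2-fold. Points lie close to the diagonal, with 7 genes above the upper line and 11 below the lower one, and the named genes meet the rule for leading genes.

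In gated monocytes and macrophages, the leading higher genes included genes of classical monocytes and of interferon responses. *Ly6c2*, the surface antigen that marks classical monocytes, was at 943 CPM (936 to 950) in the labelled group and 402 CPM (398 to 405) in WT TAC (log2 ratio 1.21), against 112 CPM in WT sham, 334 CPM in CD3e-/- sham and 920 CPM in CD3e-/- TAC. *Ly6c2* was read in 60.1% and 59.0% of cells, and after thinning to 30000 reads in 45.6% (41.5% to 49.7%) against 37.6% (34.6% to 40.6%). *Ly6a*, an interferon-inducible surface antigen (Sca-1), was at 298 and 132 CPM (log2 ratio 1.12) and was read in 20.3% and 12% of cells. The level of *Ly6a* was 9.95 CPM in WT sham, 22.1 CPM in CD3e-/- sham and 414 CPM in CD3e-/- TAC. Reads of *Ly6c2* and *Ly6c1*, and of *Ly6a* and *Ly6a2*, can be split between near-identical copies, so each of these is uncertain as a single gene.

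*Isg15*, a ubiquitin-like protein of the antiviral response, was at 319 CPM (315 to 323) against 156 CPM (154 to 158), a log2 ratio of 0.99, and was read in 35.3% against 23.4% of gated cells. Other leading higher genes were *Slfn4*, an interferon-induced myeloid gene (224 against 112 CPM, log2 ratio 0.94), *Ly6a2* (0.90), the interferon-inducible GTPases *Tgtp2* (0.84) and *Tgtp1* (0.78), *Il1rn*, the antagonist of the interleukin-1 receptor (151 against 85.2 CPM, 0.76), and *Mx1* (133 against 74.9 CPM, 0.75). *Tgtp1* and *Tgtp2* are near-identical copies as well. For *Isg15*, *Slfn4* and *Mx1*, WT sham lay below all TAC groups, at 38.3, 11.5 and 25 CPM, and CD3e-/- TAC lay between WT TAC and the labelled group, at 270.1, 174 and 91.1 CPM.

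The leading lower gene of gated cells was *Mt2*, a metallothionein. It was at 25.1 CPM (24 to 26.3) in the labelled group and 73.6 CPM (72.2 to 75) in WT TAC, a log2 ratio of -1.25, and was read in 41.2% and 46.8% of cells. The ratio was -0.72 with 50 CPM added and -0.77 as the mean over cells. The *Mt2* level was 127 CPM in WT sham, 147 CPM in CD3e-/- sham and 41.5 CPM in CD3e-/- TAC, so all TAC groups were below both sham groups. The neighbouring metallothionein *Mt1* was also lower, at 213 against 318 CPM (log2 ratio -0.56), with 422, 451 and 268 CPM in WT sham, CD3e-/- sham and CD3e-/- TAC. *Igsf11*, an adhesion molecule of the immunoglobulin family, was at 42.3 against 88.2 CPM (log2 ratio -0.91) and was read in 40.9% against 54.4% of cells. The long non-coding RNA *Gm46516* was at 20.6 against 40.7 CPM (log2 ratio -0.73). Of the 596 WT TAC cells with *Igsf11* reads 510 also had *Gm46516* reads, as did 196 of 248 cells of the labelled group. Among all gated cells *Gm46516* was read in 54.4% of WT TAC and 43.0% of the labelled group. Why both were read in the same cells was not tested. *Itgax*, the CD11c integrin of dendritic cells and some macrophages, was at 72.0 against 121 CPM (log2 ratio -0.68), with 95.6 CPM in WT sham, 169 CPM in CD3e-/- sham and 80.1 CPM in CD3e-/- TAC. The other leading lower genes were the motor protein gene *Myo1e* (-0.62), the kinase gene *Matk* (-0.56), the ribosome biogenesis gene *Nop14* (-0.56), the lectin gene *Clec10a* (-0.53) and the semaphorin receptor gene *Nrp2* (-0.53).

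Promoter sequence is given for leading genes of the interferon and metallothionein groups, since the leading genes of each group differed in the same direction. The windows are the 150 bases before the gene start in RefSeq, build GRCm38.p6, on the strand of the gene, 5′ to 3′. Capitals mark the core of the interferon-stimulated response element (GAAANN followed directly by GAAA) in *Isg15* (chr4:156200819-156200968, minus strand) and *Ifit1* (chr19:34640739-34640888, plus strand), and the core of the metal response element, TGCACNC or TGCGCNC, in *Mt1* (chr8:94178939-94179088, plus strand) and *Mt2* (chr8:94172468-94172617, plus strand). Both strands were searched, so a match can be printed as its reverse complement.
Isg15: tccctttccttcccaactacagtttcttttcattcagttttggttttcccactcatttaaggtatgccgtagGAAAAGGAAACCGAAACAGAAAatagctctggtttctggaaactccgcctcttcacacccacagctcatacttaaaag
Ifit1: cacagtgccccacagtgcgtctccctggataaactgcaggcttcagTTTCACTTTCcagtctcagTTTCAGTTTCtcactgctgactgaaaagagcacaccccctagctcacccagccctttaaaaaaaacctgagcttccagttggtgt
Mt1: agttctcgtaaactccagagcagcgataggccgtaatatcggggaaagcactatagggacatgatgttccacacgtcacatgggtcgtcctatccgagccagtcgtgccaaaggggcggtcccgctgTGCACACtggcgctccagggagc
Mt2: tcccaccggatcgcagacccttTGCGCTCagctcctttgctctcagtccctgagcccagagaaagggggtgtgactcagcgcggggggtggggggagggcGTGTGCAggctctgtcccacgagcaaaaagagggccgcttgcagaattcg
The *Isg15* window held 3 overlapping matches, 66 to 78 bases before the start, and the *Ifit1* window held 2, at 85 and 104 bases. The windows of *Slfn4* and *Oasl1* held no match to these letters. In the whole table this core was found in 1131 of 32851 promoters of 300 bases (3.44%), in 252 of the 5379 promoters of genes tested in gated cells (4.68%), in 10 of the 18 matched promoters of the type I interferon list (55.6%) and in 8 of 12 of the interferon-gamma list (66.7%). The metal response core was common, at 25.7% of all promoters and 40.2% of those of tested genes. A match is a description of the sequence only.

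Described by lists, the interferon genes stood highest. Lists are given by the count of tested members above or below 0 and by their median, beside 51.8% of all 6904 genes above 0 and a median of 0.006 in gated cells. Of 26 type I interferon response genes 25 were tested, and 24 were above 0, with a median log2 ratio of 0.52. The exception was *Mx2* (-0.03). None passed 2-fold, and the highest were *Isg15* (0.99), *Slfn4* (0.94), *Mx1* (0.75) and *Ifi47* (165 against 99.9 CPM, 0.67). The transcription factor *Irf7*, which amplifies type I interferon production, was at 357 against 236 CPM (0.58), and *Ifit1*, which binds foreign RNA, at 125 against 76.7 CPM (0.64). The receptor subunit *Ifnar1* itself was at 193 and 190 CPM (0.02). Summed over the list, the level was 4649 CPM in the labelled group and 3129 CPM in WT TAC, against 1149 CPM in WT sham, 1223 CPM in CD3e-/- sham and 3928 CPM in CD3e-/- TAC.

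Of the interferon-gamma response genes 16 of 17 were above 0, with a median of 0.39. The highest were *Iigp1*, a GTPase of defence against intracellular parasites (48.0 against 22.6 CPM, 0.83, with 15.5% of its reads from 1 cell), and the guanylate-binding gene *Gbp2* (136 against 77.9 CPM, 0.73). The receptor gene *Ifngr1* was at 415 and 416 CPM (-0.00). MHC class I genes, which present antigen to CD8+ T cells, were above 0 in 15 of 16, with a lower median of 0.18. Their highest members were the peptide transporter *Tap1* (139 against 103 CPM, 0.40), the immunoproteasome subunit *Psmb9* (0.33) and *H2-Q7* (0.33).

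**Figure D2:**
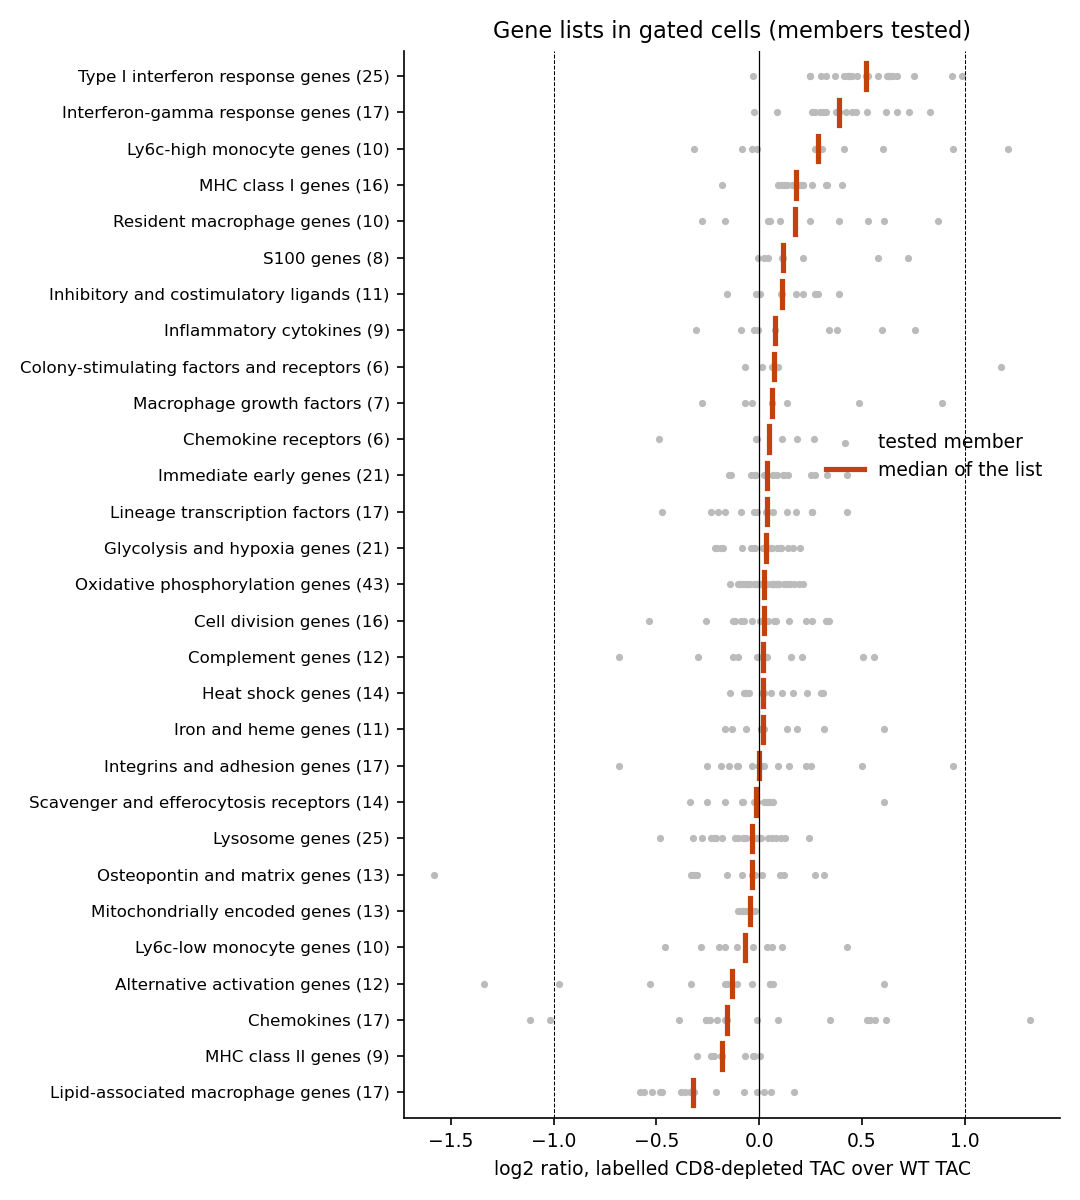
Log2 ratio of the labelled group over WT TAC in gated cells (horizontal) for the tested members of 29 gene lists (rows); points are genes and the vertical bar of each row is its median. Type I interferon response genes lie highest with a median of 0.52 and lipid-associated macrophage genes lowest with -0.32, while the median of all tested genes is 0.006.

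Lipid-associated macrophage genes stood lowest, with 14 of 17 below 0 (48.2% of all genes) and a median of -0.32. The glycoprotein gene *Gpnmb* was at 103 against 158 CPM (log2 ratio -0.58, with 11.5% of its WT TAC reads from 1 cell), the proton pump subunit *Atp6v0d2* at 14.8 against 26.5 CPM (-0.56), *Ms4a7* at 388 against 562 CPM (-0.52) and the protease *Ctsd* at 1334 against 1870 CPM (-0.48). The apolipoprotein *Apoe*, read in every gated cell of both groups, was at 14030 against 18233 CPM (-0.38), and the lipid receptor *Trem2* at 260 against 336 CPM (-0.36). MHC class II genes were below 0 in 8 of 9, with a median of -0.18, led by *H2-DMb2* at 25.5 against 33.9 CPM (-0.30), *H2-Eb1* at 3442 against 4046.5 CPM (-0.23) and *H2-Ab1* at 3936 against 4588 CPM (-0.22).

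Monocyte and resident macrophage genes were mixed. The Ly6c-high monocyte list had 6 of 10 members above 0 and a median of 0.29: beside *Ly6c2*, *Plac8* was at 1307 against 858 CPM (0.60) and the haptoglobin gene *Hp* at 127 against 93.1 CPM (0.41), while *Ccr2*, the receptor that draws monocytes into tissue, was at 1898 and 1913 CPM (-0.01) and fibronectin (*Fn1*) at 1042 against 1299 CPM (-0.32). Of the resident list 8 of 10 were above 0, with a median of 0.17. The lectin *Fcna* was at 30.7 against 12.3 CPM (0.87, with 28.2% of its reads from 1 cell), the haemoglobin scavenger receptor *Cd163* was at 98.4 against 61.1 CPM (0.61), the hyaluronan receptor *Lyve1* at 82.9 against 54.5 CPM (0.53, with 14.4% of its reads from 1 cell) and the chemokine *Pf4* at 490 against 371 CPM (0.39). *Cd163*, *Lyve1* and *Pf4* were highest in WT sham, at 263, 179 and 800 CPM, and in CD3e-/- TAC they were at 35.4, 79.7 and 269 CPM.

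Growth factors made by macrophages, which the study asked about, showed no common direction. Of 19 listed, 7 passed the minimum level, 4 above and 3 below 0, with a median of 0.06. Oncostatin M (*Osm*), a cytokine that acts on heart muscle cells, was at 173 against 121 CPM (0.49), with 79.4 CPM in WT sham, 121 CPM in CD3e-/- sham and 161 CPM in CD3e-/- TAC. Insulin-like growth factor 1 (*Igf1*) was at 175 against 213 CPM (-0.28), and *Tgfb1* at 299 against 306 CPM (-0.03). The share of gated cells with *Igf1* at 200 CPM or more was not lower, at 28.3% (24.8% to 32.1%) against 26.7% (24.1% to 29.4%). Amphiregulin (*Areg*) was below the minimum, at 4.09 against 5.98 CPM, and was read in 0.659% and 0.913% of cells. The macrophage growth factor *Csf1* was at 30.6 against 7.97 CPM (1.18), with 23.3% of its reads from 1 cell. *Gdf15* was at 21.2 against 6.82 CPM (0.89), with 36.2% of its reads from 1 cell.

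Other lists lay near 0, and some of their members furthest from 0 rested on few cells. Of the alternative activation genes 8 of 12 were below 0, with a median of -0.13. Arginase 1 (*Arg1*) was at 74.7 against 204 CPM (-1.34), and at 885 CPM in CD3e-/- TAC. From 1 cell came 17.2% of the *Arg1* reads of the labelled group and 6.82% of those of WT TAC, the higher group. The secreted protein gene *Retnla* was at 164 against 333 CPM (-0.98). For *Retnla*, 55.4% of the reads of the labelled group and 24.2% of those of WT TAC came from 1 cell. The macrophage elastase *Mmp12* was at 58.7 against 196 CPM (-1.58), with 30.4% and 22.8% of its reads from 1 cell. Chemokines had 7 of 17 above 0 and a median of -0.16. The members of the list furthest from 0 were *Cxcl13* (1.32, with 93.1% of its reads from 1 cell), *Cxcl3* (-1.11) and *Ccl8* (16.6 against 43.9 CPM, -1.02, with 28.8% of its WT TAC reads from 1 cell). *Ccl17*, a chemokine outside the list named after its value was seen, was at 1.99 against 62.3 CPM (-2.59), with 67.2% of its WT TAC reads from 1 cell. The monocyte attractant *Ccl2* was at 656 against 449 CPM (0.54) and the neutrophil attractant *Cxcl2* at 789 against 1036 CPM (-0.39). Inflammatory cytokines had a median of 0.07, with *Il1rn* (0.76) and *Ptgs2* (0.60) highest, *Il1b* at 514 against 487 CPM (0.07) and *Tnf* at 48.2 against 49.2 CPM (-0.02). Nuclear genes of oxidative phosphorylation had a median of 0.03 (29 of 43 above 0), mitochondrially encoded genes one of -0.04 (0 of 13 above 0), lysosome genes one of -0.03 and cell division genes one of 0.02.

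Shares of cells with a gene at 200 CPM or more were compared for 25 genes of macrophage states, with 2000 CPM for *H2-Aa*. The share was higher in the labelled group for 15 genes and lower for 10. The intervals lay apart for 4 genes, all higher in the labelled group. These were *Ly6c2* at 29.8% (26.2% to 33.6%) against 19.6% (17.3% to 22.1%), *Isg15* at 24.9% (21.5% to 28.5%) against 14.7% (12.7% to 16.9%), *Osm* at 21.4% (18.2% to 24.9%) against 14.8% (12.7% to 17.0%), and the chemokine *Cxcl10* at 10.4% (8.07% to 13.1%) against 6.12% (4.77% to 7.71%). The intervals of the other 21 genes overlapped. At 100 and at 400 CPM, those of *Ly6c2* and *Isg15* still lay apart, while those of *Cxcl10* overlapped at both limits and those of *Osm* at 400 CPM. For *Cd163* the shares were 14.8% (12.1% to 17.9%) and 10.2% (8.50% to 12.2%), and for *Ccr2* 62.9% (59.0% to 66.8%) and 68.6% (65.7% to 71.3%). In CD3e-/- TAC the shares were 30.1% for *Ly6c2*, 23.4% for *Isg15* and 5.80% for *Cd163*, and in WT sham 6.90%, 5.84% and 29.4%.

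**Figure D3:**
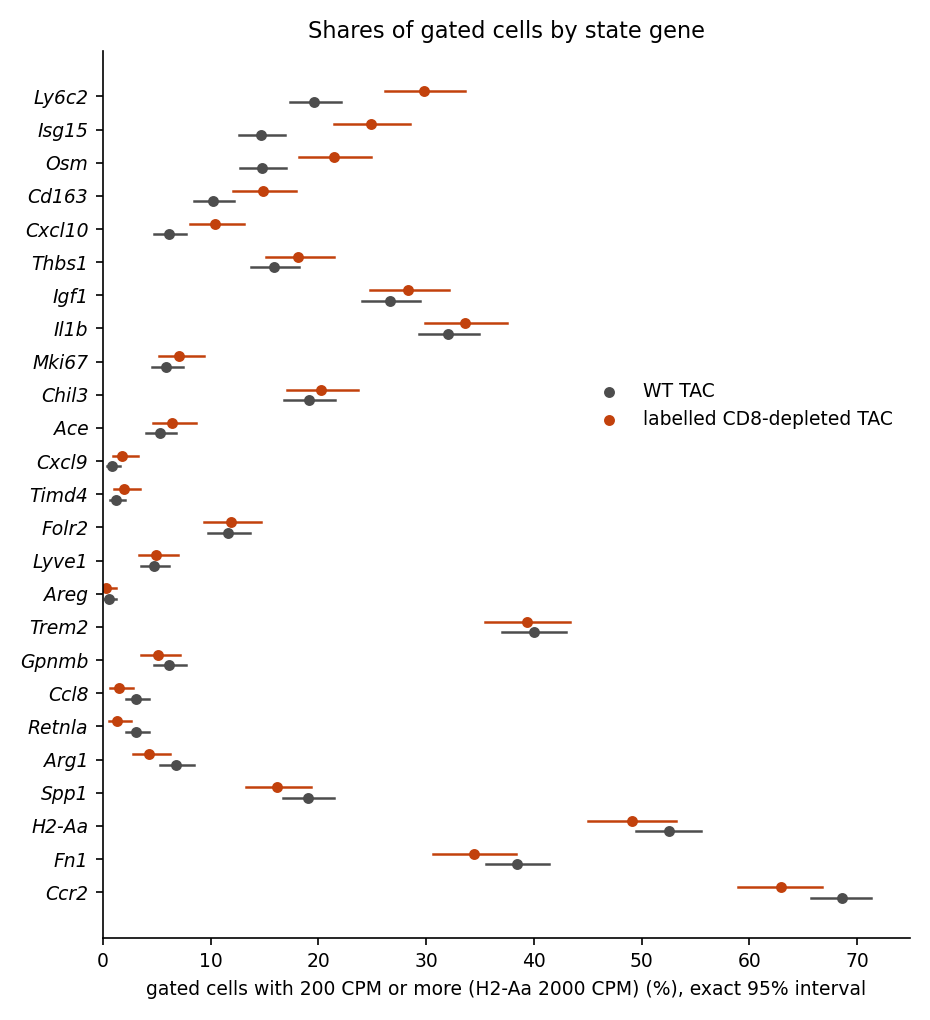
Share of gated cells (percent, horizontal) with each of 25 state genes at 200 CPM or more (2000 CPM for *H2-Aa*) in WT TAC and in the labelled group; bars are exact 95% Clopper-Pearson intervals for counting error. At this limit the intervals lie apart for *Ly6c2*, *Isg15*, *Osm* and *Cxcl10*, all higher in the labelled group, and at 400 CPM for *Osm* and at 100 and 400 CPM for *Cxcl10* they overlap.

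Because the share of cells with *Ly6c2* differed, the gated cells were parted at 200 CPM of *Ly6c2*, a range and not a cell type, with 27 cells of WT TAC and 13 of the labelled group within 20% of the limit. Below it lay 880 cells of WT TAC and 426 of the labelled group, and from it upward 215 and 181. The interferon genes differed more in the upper range. There all 26 tested type I interferon genes were above 0 (46.5% of all 6723 genes tested there), with a median of 0.48, and below the limit 10 of 24 were above 0 (52.5% of 7013 genes), with a median of -0.11. With the limit at 100 CPM the medians were 0.46 and -0.04, and with the limit at 400 CPM they were 0.43 and 0.06, with 14 of 25 genes above 0 below the limit. *Isg15* was at 761 against 418 CPM in the upper range (log2 ratio 0.85), where it was read in 73.5% against 52.1% of cells, and at 99.9 against 83.6 CPM below it (0.23). *Ifit1* was at 301 against 170 CPM in the upper range (0.79) and at 37.6 against 50.8 CPM below it (-0.35). *Irf7* was at 816 against 582 CPM (0.48) and at 129 against 140 CPM (-0.11) in the same order. Not every gene differed so: *Oas2* was at 0.05 in the upper range and 0.26 below it, and *Rtp4* at 0.09 and 0.15. The difference between the ranges was not tested.

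**Figure D4:**
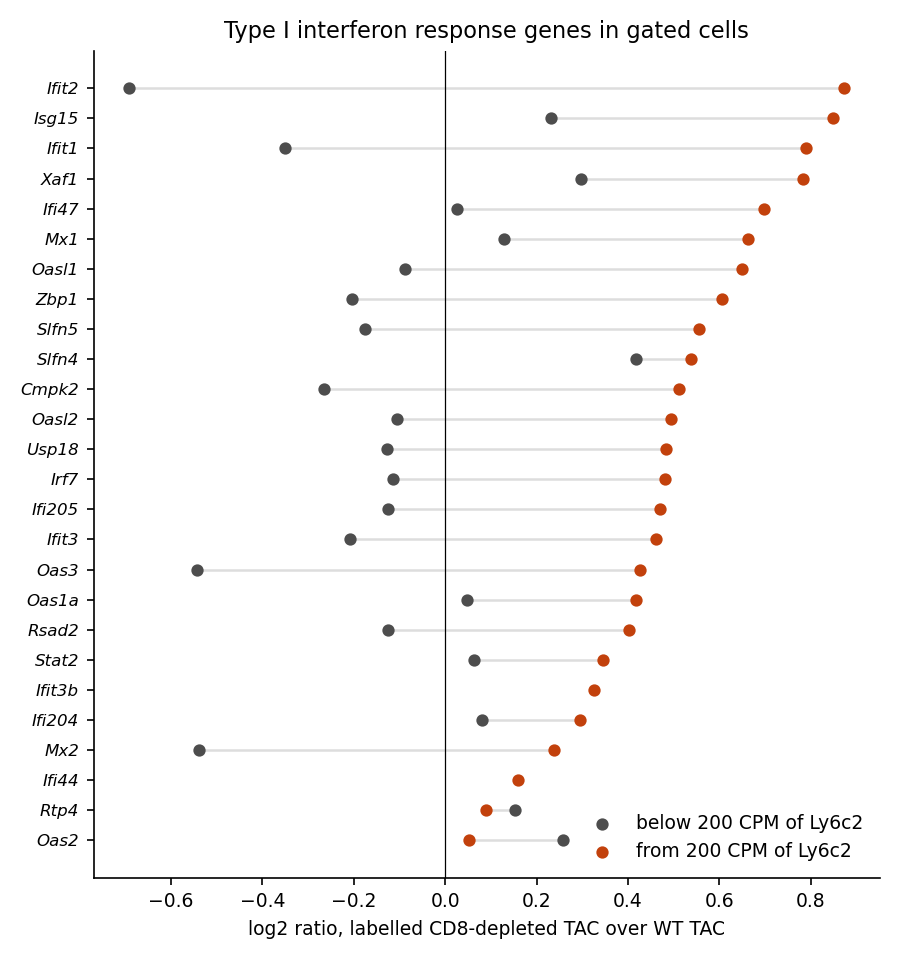
Log2 ratio of the labelled group over WT TAC for 26 type I interferon response genes (rows) in gated cells below 200 CPM of *Ly6c2* and from 200 CPM upward; *Ifit3b* and *Ifi44* were under the minimum level below the limit. All 26 points of the upper range lie above 0, with a median of 0.48, against 10 of 24 below the limit.

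The list was also summed per cell. Below the limit, the median cell had 944 CPM of type I interferon genes in the labelled group and 921 CPM in WT TAC, with 1056 CPM in CD3e-/- TAC. In the upper range it had 5774 CPM in the labelled group, 3474 CPM in WT TAC and 4587 CPM in CD3e-/- TAC, and the 75th percentile was 14727 against 8260 CPM. Both a larger share of reads from the upper range and a higher level within it entered the summed level. Cells of the upper range gave 33.2% of the gated reads of the labelled group and 21.7% of those of WT TAC. With WT TAC levels at the read shares of the labelled group, the summed list would be at 3685 CPM, between the 3129 CPM of WT TAC and the measured 4649 CPM.

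**Figure D5:**
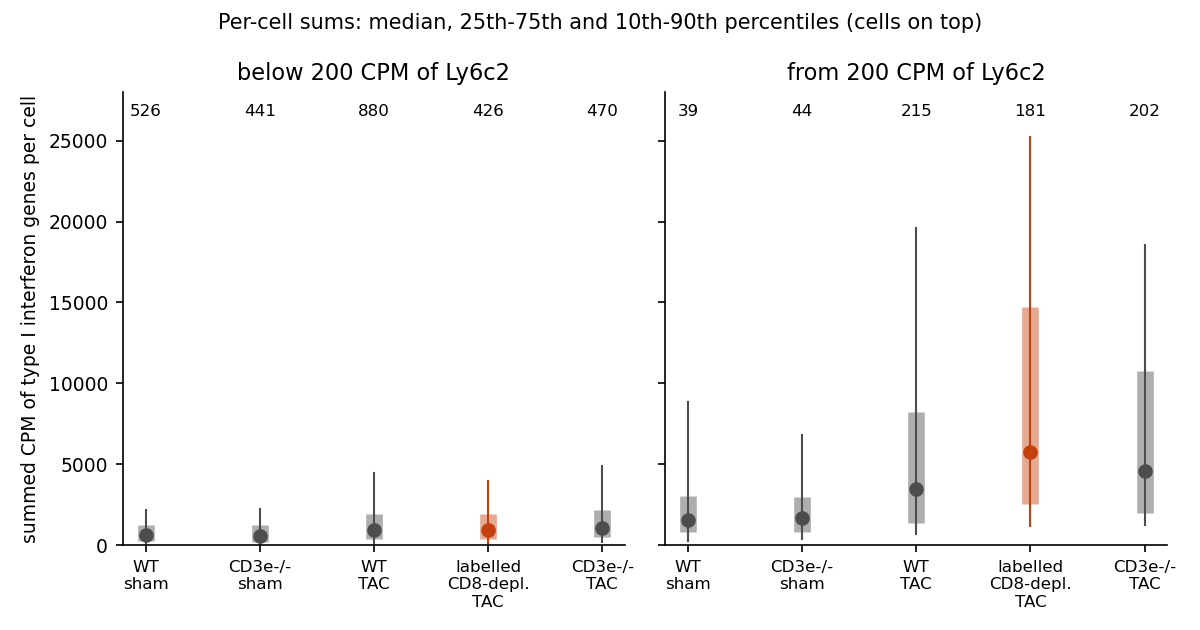
Summed CPM of 26 type I interferon response genes per gated cell, in 5 groups, below and from 200 CPM of *Ly6c2*; points are medians, thick bars span the 25th to 75th and thin bars the 10th to 90th percentile of cells. Below the limit the medians of the TAC groups lie between 921 and 1056 CPM, and in the upper range at 3474 CPM in WT TAC, 4587 CPM in CD3e-/- TAC and 5774 CPM in the labelled group.

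Other lists were compared by range in the same way. MHC class I genes were above 0 in 15 of 16 in the upper range (median 0.40) and in 7 of 16 below it (-0.01). Interferon-gamma response genes were above 0 in 18 of 19 (median 0.39) and 7 of 14 (-0.01). With the limit at 400 CPM, 12 of 16 MHC class I genes (0.05) and 14 of 16 interferon-gamma response genes (0.10) were above 0 below it, so the even split there depends on the limit. *Gbp2* was at 306 against 149 CPM in the upper range (0.99) and at 51.4 against 58.2 CPM below it (-0.15). Conversely, the lower lipid-associated genes were found below the limit, with 14 of 17 below 0 (47.5% of all genes there) and a median of -0.29. In the upper range 10 of 16 were above 0 (46.5% of all genes there), with a median of 0.04. *Gpnmb* was at 88.8 against 194 CPM below the limit (-1.05) and at 130 against 28.9 CPM in the upper range (1.85). In the upper range 1 cell gave 32.8% of its reads in the labelled group and 53.9% in WT TAC. *Ctsd* was at 1529 against 2134 CPM below the limit (-0.48) and had a log2 ratio of 0.04 in the upper range, and *Ms4a7* was at 499 against 672 CPM (-0.42) and -0.01. For MHC class II genes summed per cell, the median below the limit was 24702 CPM in the labelled group and 26991 CPM in WT TAC. In the upper range that median was higher in the labelled group, at 10800 against 7282 CPM, while the 90th percentile was lower, at 43643 against 54045 CPM. Resident macrophage genes below the limit were above 0 in 8 of 10, with a median of 0.33, and in the upper range the 4 tested were all above 0, with a median of 0.47. Below the limit *Cd163* was at 142 against 75.7 CPM (0.83), *Lyve1* at 124 against 68.1 CPM (0.78) and *Pf4* at 713 against 465 CPM (0.61). In the upper range these 3 genes were low, at 9.98 against 8.53 CPM, 0 against 5.48 CPM and 40.8 against 32.9 CPM. The median cell below the limit had 2195 CPM of the resident list in the labelled group, 1384 CPM in WT TAC and 1180 CPM in CD3e-/- TAC. Over all gated cells the median did not differ so, at 893 CPM in the labelled group and 899 CPM in WT TAC. The 75th percentile over all gated cells was 3984 against 3069 CPM. A larger part of the labelled group lay in the upper range and was thus left out below the limit.

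The leading lower genes were lower in both ranges. The log2 ratio of *Mt2* was -1.19 below the limit and -1.11 above it, that of *Mt1* -0.47 and -0.61, that of *Igsf11* -0.86 and -0.75, and that of *Itgax* -0.62 and -0.58. *Ly6a* had a log2 ratio of 0.00 below the limit and of 0.99 in the upper range, where it was at 775 against 386 CPM.

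In all CD45+ cells, the genes that met the rule for leading genes again included genes of both interferon lists. *Slfn4* was at 288 against 120 CPM (log2 ratio 1.19), *Oasl1*, a relative of the antiviral oligoadenylate synthetases, at 76.4 against 34.5 CPM (0.96), *Gbp2* at 141 against 69.7 CPM (0.92) and *Ifit1* at 149 against 77.7 CPM (0.85). *Isg20*, which is in neither list, was at 78.9 against 43.8 CPM (0.72). *Ptgs2*, the cyclooxygenase of prostaglandin synthesis, was at 91.7 against 41.7 CPM (0.98). Lower genes were *Mt2* (29.9 against 74.7 CPM, -1.09), *Itgax* (101 against 159 CPM, -0.61), the fatty acid-binding gene *Fabp5* (113 against 174 CPM, -0.59), *Jaml* (47.3 against 76.5 CPM, -0.59) and *Dpp4* (51.4 against 80.2 CPM, -0.56). Beside these values stand the smaller numbers of type 1 dendritic cells and larger numbers of neutrophils in the labelled group, whose part in them was not tested. Several matrix genes were past 2-fold with a large part of their reads from 1 cell. *Dcn*, a marker of fibroblasts, was at 175 against 51.1 CPM (1.60), with 48.9% and 32.1% of its reads from 1 cell. Both groups held 4 cells with fibroblast markers, 0.447% of the labelled group and 0.248% of WT TAC.

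The type I interferon list was also examined outside the gate, in cells chosen for this after the data had been seen. In the summed reads of the cells outside it, 21 of 26 type I interferon genes were above 0 (52% of all 7566 genes tested), with a median of 0.39. The median cell there had 794 CPM of the list in the labelled group and 820 CPM in WT TAC, and the 90th percentile was 13443 against 6948 CPM. In the 72 and 92 cells with B cell markers, 11 of 14 tested were above 0 (50.2% of 7450 genes), with a median of 0.49. In so few cells 426 of the 7450 genes were higher and 396 lower by 2-fold or more.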

How the data were processed

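CD45+ heart cells of 5 hashtag groups were sequenced as 1 pooled library. The authors deposited raw read counts per gene and cell barcode, after error correction and hashtag assignment. Submitters' processing notes list cutadapt 2.10, Bowtie2 2.4.2 and GRCm38, without their roles. The authors' 40 doublets and 8 barcodes without a hashtag were left out, and no doublet caller was run. Of 27809 genes, those with at least 20 CPM of summed reads in either group were compared, with 10 CPM added. Median depth was 75442 to 117788 reads per cell over groups, and at the lowest level compared in gated cells counting error was about 5.16% of the level.

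The gated cells and genes were chosen by the stated limits, and members and lists were chosen with earlier results of these data known. Named genes were the genes of the label check, the 10 highest and 10 lowest log2 ratios meeting the rule on cells, the state genes, and the 2 to 4 members of each list with the largest ratios. *Ifnar1*, *Ifngr1*, *Apoe*, *Trem2*, *Irf7*, *Ifit1*, *Ccl2*, *Cxcl2*, *Il1b*, *Tnf*, *Tgfb1*, *Areg*, *Ifng*, *Clec9a*, *Oas2* and *Rtp4* were named besides, after values were seen. A cell counted as holding a cell type's markers with at least 3 at 100 CPM. Python 3.11.15, numpy 2.4.6, scipy 1.17.1 and matplotlib 3.10.9 were used, and the steps were tested on simulated data. Fold changes had no replicate check. Alternatives were tried for the added CPM, the minimum level, scaling, cell filters, doublets and gate limits. The cardiomyocyte, flow cytometry and echocardiography data were not analysed here. Results on some listed genes are not reported here.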

Additional observations from a re-analysis of the deposited data

How the results depend on the processing

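No paired analysis was possible because each group was 1 pooled sample. The sign of the main value was kept in 938 of 960 values of named genes, in 167 of 175 state shares and in 302 of 321 list medians under alternatives, and in the others it turned. Of the 960, 646 stayed within their counting error, taken as the distance from the middle of the main interval to its bounds, and 314 moved by more. In gated cells *Mt2*, at -1.25, ranged from -1.51 with 1 CPM added to -0.72 with 50 CPM added, *Slfn4*, at 0.94, from 0.43 with a gate of 400 and 4000 CPM to 1.14 with one of 100 and 1000 CPM, and *Retnla*, at -0.98, from -1.47 with the stricter gate to -0.56 without the 1% of cells with the most reads. Counts of genes past 2-fold also moved. In all cells the 21 higher genes became 36 with 1 CPM added, 3 with 50 CPM added, 11 with a minimum of 50 CPM, 56 at 1.5-fold and 1 without genes of which 1 cell gave over 10% of the reads, and the 6 lower genes became 1 with 50 CPM added, 16 at 1.5-fold and 2 without such genes. In gated cells the 7 higher genes became 17, 3, 4, 39 and 2 under the same settings and 11 with a gate of 100 and 1000 CPM, and the 11 lower genes became 3 with 50 CPM added, 6 with a minimum of 50 CPM, 6 with the mean over cells and 3 without such genes. Leaving out such genes was chosen after seeing the data.

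Of 321 list medians under alternatives 310 moved by less than 0.1. The type I interferon median of 0.52 was 0.40 with 50 CPM added, 0.34 with a gate of 400 and 4000 CPM and 0.39 outside the gate, and the interferon-gamma median of 0.39 was 0.23 with 50 CPM added. With the mean over cells, the medians of lipid-associated, alternative activation and cell division genes were -0.18, -0.023 and 0.13, and that of cell division was 0.29 with a minimum of 50 CPM. The chemokine median of -0.16 was 0.027 without the 1% of cells with the most reads and 0.031 with a gate of 100 and 1000 CPM, which also gave 0.16 for chemokine receptors. The difference in the share of gated cells, 0.0952 points, was 0.0175 with a gate of 100 and 1000 CPM 1.14 with one of 400 and 4000 CPM and -0.949 after thinning. The difference in the share of T cells, 0.679 points, was 0.0178 without possible doublets. The causes were not tested.

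Limits are 1 sample a side, with no spread between mice measured, intervals that cover counting error only, and a label that CD8 reads did not check.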
